A study of Mus musculus with 9 samples.

Results

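Carbonic anhydrases are described here across the jejunum of 9 mice, as the 8 genes Car1, Car2, Car3, Car4, Car8, Car9, Car12 and Car13 among 31685 genes listed with an expression value. The genes were selected by symbol, with the differences of these same libraries between irradiated and control mice already known, so every value of these 8 genes against control is given as a description and carries no test. Genes outside the 8 are tested against control. Their lists, too, were chosen with earlier results of these data known, so their counts and p-values carry that limit. All mice were wild-type C57BL/6J males aged 6 to 8 weeks, 3 in each group, and their RNA was sequenced from jejunum taken on day 3. The control mice had no treatment. The TAI mice received a single X-ray dose of 12 Gy of total abdominal irradiation at 75 cGy/min, with the rest of the body shielded. The TAI/IVIg mice received the same irradiation and 500 mg/kg of intravenous immunoglobulin (IVIg, pooled human IgG), first given within 1 h and repeated every 3 days. Every library carries the same batch label. The series text gives PBS to the irradiated mice without IVIg, and a group that had PBS or IVIg with no irradiation was not analysed here.

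Carbonic anhydrases catalyse the reversible hydration of carbon dioxide to bicarbonate and a proton. In the small intestine they supply the bicarbonate and protons exchanged by transporters of the epithelium, which serves salt absorption, bicarbonate secretion and the control of pH at the cell surface. The family members differ in place and activity. Car4 is anchored to the outer face of the plasma membrane, Car9 and Car12 cross it with their catalytic part outside, Car1, Car2, Car3 and Car13 are cytosolic, and Car8 lacks the catalytic activity.

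The recovered read totals of the libraries ran from 16282140 to 18241970, and levels are given as FPKM (fragments per kilobase of gene, scaled to the depth of the library), a scale per length, so that genes can be compared with each other. The labels name jejunal epithelial tissue. Epithelial markers were high, with the control mice at 117 to 215 FPKM of Alpi (the intestinal alkaline phosphatase), but the smooth muscle actin Acta2 stood at 193 to 266 FPKM in the same mice, so the samples held muscle of the wall as well. The summed FPKM of 8 smooth muscle markers was 497 to 638 in control, 549 to 789 in TAI and 116 to 565 in TAI/IVIg mice, with TAI/IVIg mouse 3 lowest. The summed FPKM of 12 adipocyte markers was 93.2 to 152 in control, 142 to 597 in TAI and 91.1 to 169 in TAI/IVIg mice, with TAI mouse 3 highest. In such bulk samples, fewer cells of a type and less RNA per cell cannot be told apart. On the log2(FPKM + 1) scale used for all differences below, the median gene lay at -0.24 in TAI and at -0.39 in TAI/IVIg relative to control, and with the library medians set equal these became 0.03 and 0.05.

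The RefSeq promoter table was matched for 3 of the 8 genes, Car4, Car9 and Car12, which act at the cell surface and were lower in all irradiated mice than in all control mice. The sequences shown are the 250 bases before the RefSeq start on GRCm38.p6, plus strand, at chr11:84957504-84957753 for Car4, chr4:43506776-43507025 for Car9 and chr9:66713436-66713685 for Car12. Capitals mark matches to 4 motifs, each searched on both strands. ACGTG is the core of the hypoxia response element and is also part of the E-box, where a C stands before it. TGANTCA is the motif of AP-1. The letters of the TATA box were TATAAA. For the enterocyte factor HNF4 they were CAAAGTCCA.
Car4: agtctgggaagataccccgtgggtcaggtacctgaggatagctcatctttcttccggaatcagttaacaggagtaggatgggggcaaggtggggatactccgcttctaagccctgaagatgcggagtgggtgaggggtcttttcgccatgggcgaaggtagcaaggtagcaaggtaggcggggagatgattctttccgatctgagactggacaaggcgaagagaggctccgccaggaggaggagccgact
Car9: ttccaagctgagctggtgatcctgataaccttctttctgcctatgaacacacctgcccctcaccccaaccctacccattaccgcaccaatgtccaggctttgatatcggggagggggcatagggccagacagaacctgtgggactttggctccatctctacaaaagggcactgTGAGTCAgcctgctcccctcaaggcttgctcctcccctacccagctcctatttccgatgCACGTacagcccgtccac
Car12: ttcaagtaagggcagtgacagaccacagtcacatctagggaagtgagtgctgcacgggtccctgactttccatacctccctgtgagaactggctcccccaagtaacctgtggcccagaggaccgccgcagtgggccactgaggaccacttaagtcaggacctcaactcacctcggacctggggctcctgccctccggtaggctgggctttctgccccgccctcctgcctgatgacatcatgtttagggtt
The search covered a window of 300 bases that also took in 50 bases after the start. Car9 held ACGTG on the minus strand, 18 bases before the start, and TGAGTCA, 77 bases before the start. Distances are from the RefSeq start, and the GENCODE gene begins elsewhere for Car9 (43506966) and for Car4 (84957786). By the GENCODE position the ACGTG of Car9 lies inside the gene. Car4 held ACGTG on the minus strand 2 bases after the start and TATAAA 42 bases after it, both outside the printed stretch. Car12 held none of the 4 motifs in this window. Among 32851 promoter windows of the same length, 19.6% held ACGTG, 7.81% TGANTCA, 13.6% TATAAA and 0.475% CAAAGTCCA, and a match is a description of letters only.

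Of the 8 genes, 7 passed the filter of at least 1 FPKM in at least 3 mice, as did 13056 genes in all, and Car1 did not. In TAI against control, 3 of these 7 genes, Car4, Car9 and Car13, were over 2-fold lower on the log2(FPKM + 1) scale, where 10.2% of the genes tested were. In the same comparison 1 gene, Car3, was over 2-fold higher, as were 4.47% of the genes tested. In TAI/IVIg against control, 4 genes (the same 3 and Car12) were over 2-fold lower, against 17.0% of the genes tested, and 0 were over 2-fold higher, against 4.01%. For these 4 genes all 6 irradiated mice lay below all 3 control mice, which held for 32.7% of the genes tested. The 2 irradiated groups share their control mice. Since the genes were selected with these differences known, nothing is read from these shares.

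**Figure D1:**
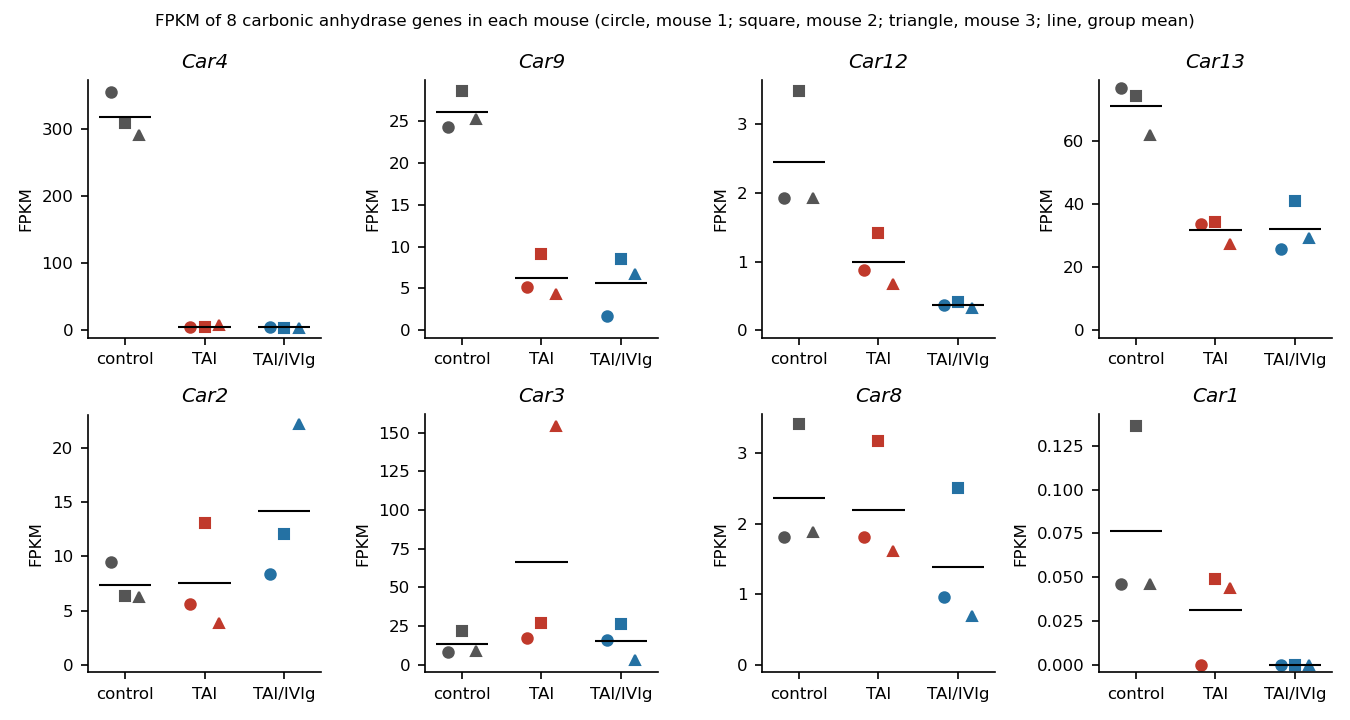
FPKM of the 8 carbonic anhydrase genes (vertical axes, linear, a scale for each gene) in each mouse of the 3 groups, with the group mean as a line. Car4, Car9, Car12 and Car13 were lower in all 6 irradiated mice than in the 3 control mice, while Car2, Car3 and Car8 overlapped.

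Car4, the membrane-anchored enzyme of the brush border, was the highest of the 8 genes in control jejunum and was among the lower ones after irradiation. The gene (ENSMUSG00000000805) lies at chr11:84957786-84966044 on the plus strand of GRCm38. The control mice had 356, 309 and 291 FPKM, the TAI mice 4.87, 4.62 and 7.64, and the TAI/IVIg mice 5.23, 3.89 and 4.12. The groups stood far apart, with the lowest control mouse well above every irradiated mouse and the irradiated groups overlapping. The mean went from 319 ± 33.4 FPKM (SD, n = 3) to 5.71 ± 1.67 in TAI and 4.42 ± 0.716 in TAI/IVIg, which were 1.79% and 1.39% of the control mean. These levels rest on 9911 to 12161 reads per control mouse and 130 to 274 reads per irradiated mouse. The log2 difference was -5.60 (SE 0.187) in TAI and -5.89 (SE 0.187) in TAI/IVIg.

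The lower level of Car4 stood beside higher levels of most markers of mature enterocytes, the absorptive cells in which Car4 is made. The sucrase-isomaltase gene Sis, named after its values were seen, was an exception, at 375, 510 and 257 FPKM in the control mice and 189, 196 and 129 in the TAI mice, which did not overlap (log2 difference -1.12, SE 0.413, limma adjusted p = 0.0631), and it was the 1 marker lower at an unadjusted p under 0.05. Of 20 such markers, all tested, limma across all genes called 11 higher in TAI and 0 lower at an adjusted p under 0.05, where 8.81% of the genes tested were called higher and 26.1% lower. With library medians set equal, 1817 genes were called higher and 1687 lower, in place of 1150 and 3411. Alpi rose from 162 ± 49.7 to 441 ± 74.5 FPKM (log2 difference 1.47, SE 0.234, limma adjusted p = 0.00264). The fatty acid binding protein Fabp1 rose from 437 ± 152 to 1238 ± 281 FPKM (log2 difference 1.53, SE 0.444, limma adjusted p = 0.0277). Markers of dividing crypt cells went the other way, with 9 of 9 tested called lower and the summed level of the 10 markers at 38.8 to 105 FPKM in control, 7.45 to 12.6 in TAI and 2.94 to 7.96 in TAI/IVIg mice. The crypt markers Mki67, Top2a, Ccnb1, Cdk1, Aurkb, Bub1 and Ccna2 reached 1 FPKM in 3 mice only with the control mice counted. These passed the filter through the group where they were high, while Birc5 and Plk1 passed without it. Apart from Mki67 and Top2a, these genes are named after their values were seen. Whether the makeup of cells had a part in the level of Car4 was not tested.

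Car9 is a transmembrane enzyme, known as a target of the hypoxia-inducible factor and found at the surface of crypt epithelium. The gene (ENSMUSG00000028463) lies at chr4:43506966-43513729 on the plus strand. Car9 stood at 24.2, 28.5 and 25.2 FPKM in the control mice, and at 5.14, 9.09 and 4.38 in the TAI mice and 1.74, 8.56 and 6.68 in the TAI/IVIg mice. All irradiated mice were below all control mice, and the TAI/IVIg mice spread the most, from 72 to 335 reads. The mean went from 26.0 ± 2.24 FPKM in control to 6.20 ± 2.53 in TAI and 5.66 ± 3.52 in TAI/IVIg, which were 23.9% and 21.8% of control. The log2 difference was -1.96 (SE 0.429) in TAI and -2.20 (SE 0.429) in TAI/IVIg.

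Car12, the other transmembrane enzyme, was low in all groups. The gene (ENSMUSG00000032373) lies at chr9:66713686-66766845 on the plus strand. Car12 stood at 1.93, 3.49 and 1.93 FPKM in the control mice, 0.876, 1.42 and 0.671 in the TAI mice, and 0.373, 0.418 and 0.322 in the TAI/IVIg mice. The 3 groups did not overlap, in the order control, TAI and TAI/IVIg. Car12 reached 1 FPKM in 4 mice, the 3 control mice and TAI mouse 2, so it passed the filter through the group where it was high. The group means were 2.45 ± 0.897, 0.990 ± 0.389 and 0.371 ± 0.0483 FPKM, resting on 254 to 468, 93 to 176 and 41 to 54 reads per mouse. The log2 difference from control was -0.78 (SE 0.209) in TAI and -1.30 (SE 0.209) in TAI/IVIg. For a gene of this level the added 1 FPKM shrinks the difference, which was -1.23 and -2.39 with 0.1 added instead and -1.33 and -2.66 by limma voom on the recovered reads.

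Car13, a cytosolic enzyme, was second in level in control jejunum. The gene (ENSMUSG00000027555) lies at chr3:14641727-14663002 on the plus strand. Car13 stood at 76.8, 74.3 and 61.8 FPKM in the control mice, 33.7, 34.4 and 27.4 in the TAI mice, and 25.8, 41.1 and 29.3 in the TAI/IVIg mice. Control mice lay above all irradiated mice, and the irradiated groups overlapped. The mean went from 70.9 ± 8.04 FPKM to 31.8 ± 3.83 in TAI and 32.1 ± 8.04 in TAI/IVIg, which were 44.9% and 45.2% of control. The log2 difference was -1.13 (SE 0.187) and -1.14 (SE 0.187), and with library medians set equal it was -0.80 and -0.56, so that the difference no longer reached 2-fold.

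Car2, the cytosolic enzyme of high activity found in many tissues, stood at a similar mean level in control and TAI mice. The gene (ENSMUSG00000027562) lies at chr3:14886273-14900770 on the plus strand. The control mice had 9.53, 6.35 and 6.22 FPKM, the TAI mice 5.61, 13.0 and 3.89, and the TAI/IVIg mice 8.33, 12.1 and 22.2. All groups overlapped, and TAI/IVIg mouse 3 was the highest of the 9. The means were 7.37 ± 1.87, 7.51 ± 4.86 and 14.2 ± 7.15 FPKM. The log2 difference from control was -0.10 (SE 0.425) in TAI, or 0.19 with library medians set equal, and 0.78 (SE 0.425) in TAI/IVIg, or 1.31 with library medians set equal. As single mice were left out the latter ran from 0.42, without TAI/IVIg mouse 3, the library lowest in smooth muscle markers, to 1.08, without TAI/IVIg mouse 1.

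Car3, a cytosolic enzyme of low activity, is known for its abundance in adipocytes and skeletal muscle. The gene (ENSMUSG00000027559) lies at chr3:14863512-14872523 on the plus strand. Its levels were 8.66, 21.7 and 9.25 FPKM in the control mice, 17.5, 26.9 and 154 in the TAI mice, and 16.1, 26.6 and 3.33 in the TAI/IVIg mice. The groups overlapped, and TAI mouse 3 stood apart from every other mouse with 8059 reads. The log2 difference from control was 1.72 (SE 0.873) in TAI and -0.04 (SE 0.873) in TAI/IVIg. Without TAI mouse 3 the first was 0.79, under 2-fold.

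The adipocyte hormone Adipoq followed Car3 from mouse to mouse. It stood at 3.88, 9.83 and 6.44 FPKM in control, 8.66, 11.6 and 58.8 in TAI, and 6.84, 10.8 and 0.820 in TAI/IVIg mice, so TAI mouse 3 was highest and TAI/IVIg mouse 3 lowest for both genes. The ratio of Car3 to Adipoq ran from 1.44 to 4.06 over the 9 mice, while Car3 itself ran from 3.33 to 154 FPKM. The lipid droplet protein Plin1 was highest in the same mouse, at 3.00 FPKM, and lowest in TAI/IVIg mouse 3, at 0.0641. Of 10 adipocyte markers tested in TAI against control, limma called 1 higher and 0 lower, where it called 8.81% and 26.1% of all genes tested. The gene called was Lipe, the hormone-sensitive lipase, which is named after its values were seen. It did not follow Car3, with 14.8, 14.0 and 18.3 FPKM in the TAI and 19.0, 17.6 and 17.1 in the TAI/IVIg mice. Pparg and Cidec, also named after their values were seen, departed from Car3 as well. Pparg was lower in every TAI mouse than in every control mouse (log2 difference -0.49, SE 0.183, limma adjusted p = 0.0652). Cidec was highest in TAI mouse 3, at 99.4 FPKM, but lowest in control mouse 3, at 33.4 FPKM. The rest of those tested, Cfd, Retn, Fabp4, Lpl and Thrsp, were highest in TAI mouse 3 and lowest in TAI/IVIg mouse 3. The summed level of 9 skeletal muscle markers was 3.98 to 6.00 FPKM in control, 6.73 to 20.3 in TAI and 5.78 to 10.5 in TAI/IVIg mice, and was highest in TAI mouse 3 as well. Most of the sum in TAI mouse 3 was 1 gene, the skeletal muscle actin Acta1, at 15.1 FPKM. Ckm was also highest in that mouse, at 1.99 FPKM, but Mylpf, named after its values were seen, was lowest there, at 1.34 FPKM. The part of either tissue in the level of Car3 was not tested.

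Car8, the member without catalytic activity, is known from the brain as a binding partner of the inositol trisphosphate receptor. The gene (ENSMUSG00000041261) lies at chr4:8143362-8239041 on the minus strand. Its levels were 1.81, 3.41 and 1.87 FPKM in the control mice, 1.80, 3.17 and 1.61 in the TAI mice, and 0.967, 2.51 and 0.696 in the TAI/IVIg mice. The groups overlapped and mouse 2 was highest in each. The log2 difference from control was -0.07 (SE 0.313) in TAI, or 0.15 with library medians set equal, and -0.53 (SE 0.313) in TAI/IVIg. The summed level of 7 markers of Paneth cells, the antimicrobial cells of the crypt base, was also highest in mouse 2 of each group, at 3945 FPKM in the control, 4010 in the TAI and 1076 in the TAI/IVIg group. The other mice had 792 and 800 FPKM in control, 1449 and 1794 in TAI, and 117 and 244 in TAI/IVIg. Lyz1, the lysozyme of Paneth cells, stood at 1108, 1240 and 368 FPKM in mouse 2 of control, TAI and TAI/IVIg. This was not particular to Paneth cells, since mouse 2 of each group was also highest in the summed markers of dividing crypt cells (105, 12.6 and 7.96 FPKM) and of endothelium (62.6, 76.2 and 47.1 FPKM). The part of any of these cells in the level of Car8 was not tested.

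**Figure D2:**
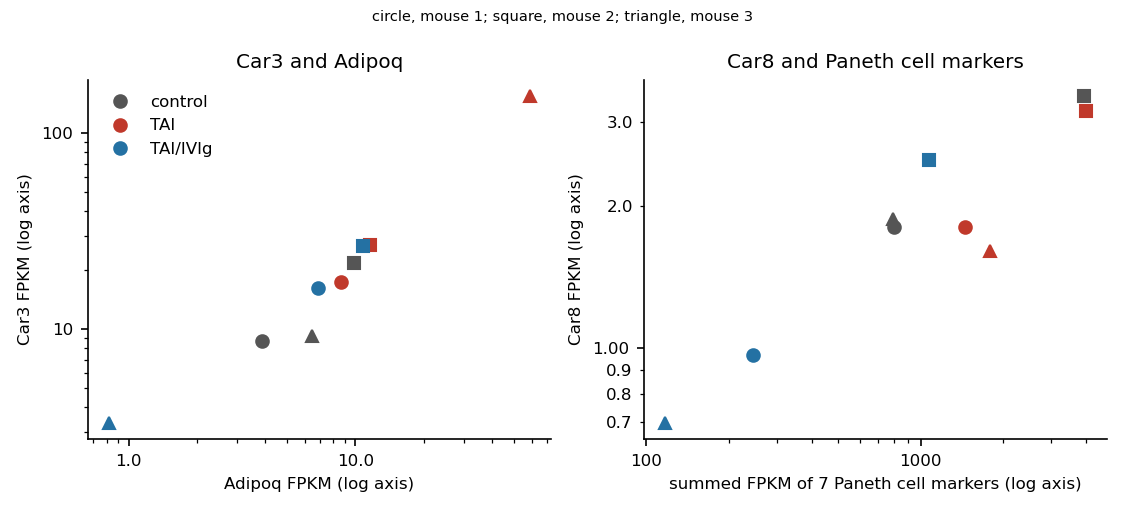
Left, Car3 against the adipocyte gene Adipoq, and right, Car8 against the summed level of 7 Paneth cell markers, in FPKM on log axes, a point for each mouse. TAI mouse 3 was highest and TAI/IVIg mouse 3 lowest for both Car3 and Adipoq, and mouse 2 of each group was highest for Car8.

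Car1, a cytosolic enzyme abundant in red blood cells and colon, was hardly detected. The gene (ENSMUSG00000027556) lies at chr3:14766216-14808368 on the minus strand. It had 1, 3 and 1 reads in the control mice, 0, 1 and 1 in the TAI mice and 0 in each TAI/IVIg mouse. No library was above the floor of 3 reads, so no fold is given and a difference was not detectable at this depth. Markers of the tissues where Car1 is abundant were low too, with Hbb-bs (an adult beta globin) at 0.869 to 5.40 FPKM and the colonic water channel Aqp8 at 0.00 to 0.286 FPKM over the 9 mice.

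The ranking of the 8 genes by mean FPKM differed between control and irradiated jejunum. In control mice the order was Car4, Car13, Car9, Car3, Car2, Car12, Car8 and Car1, in which Car3 overlapped Car2 and Car12 overlapped Car8. In TAI mice it was Car3, Car13, Car2, Car9, Car4, Car8, Car12 and Car1, where Car3 overlapped Car13 and each of Car2, Car9 and Car4 overlapped the next in the order among them. In TAI/IVIg mice it was Car13, Car3, Car2, Car9, Car4, Car8, Car12 and Car1, where each of the genes from Car13 to Car4 overlapped its neighbour. The first place of Car3 in TAI rested on TAI mouse 3, since in TAI mice 1 and 2 Car3 (17.5 and 26.9 FPKM) lay below Car13 (33.7 and 34.4 FPKM).

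Summed over the 8 genes, the level was 397 to 479 FPKM in control, 69.5 to 200 in TAI and 58.6 to 95.2 in TAI/IVIg mice, with the highest irradiated value again in TAI mouse 3. Without Car3 it was 428 ± 41.1, 54.5 ± 10.3 and 58.1 ± 13.8 FPKM (SD, n = 3). Car4 made up 69.1% to 74.3% of the sum in control mice and 3.82% to 8.94% in irradiated mice. Car13 made up 15.5% to 16.6% in control mice and 37.1% to 48.5% in the irradiated mice other than TAI mouse 3, where it was 13.7% and Car3 was 77.2%.

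**Figure D3:**
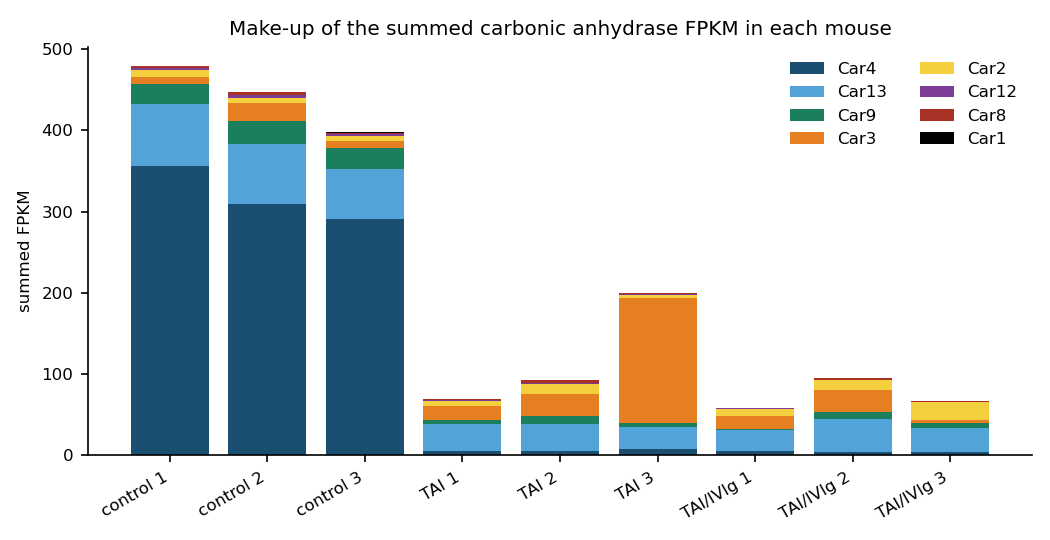
Summed FPKM of the 8 carbonic anhydrase genes in each mouse (vertical axis), with a colour for each gene. Car4 filled 69.1% to 74.3% of the control bars and 3.82% to 8.94% of the irradiated bars, and Car3 filled most of the bar of TAI mouse 3.

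The comparison of TAI/IVIg with TAI asks what IVIg added to irradiation, and it was tested. The genes were selected with the differences from control known, and the same TAI mice enter both comparisons. The test is therefore not independent of the selection. By limma 0 of the 7 genes reached an adjusted p under 0.05, and likewise 0 by limma voom on recovered reads, where 0.0% of all genes tested passed by either tool. At an unadjusted p under 0.05 by limma 1 of the 7 passed, Car12, where 12.9% of the genes tested did. Car12 was lower in TAI/IVIg by 0.52 on the log2(FPKM + 1) scale (interval -0.99 to -0.05, adjusted p = 0.366, limma). Every TAI/IVIg mouse was below every TAI mouse, but how many of all genes separate in this way was not counted. No TAI/IVIg mouse reached 1 FPKM of Car12, which passed the filter through control mice and TAI mouse 2, where it was high. Its p-value carries that limit. The interval for Car4 was -0.71 to 0.13 around -0.29 (limma adjusted p = 0.501), and that for Car13 was -0.43 to 0.41 around -0.01 (limma adjusted p = 0.985). For Car9 it was -1.22 to 0.73 around -0.24 (limma adjusted p = 0.811). These intervals lie within a change of 1 on the log2 scale for Car4 and Car13, and reach past it for Car9. The value of Car12 depended on the added 1 FPKM, and was -1.16 with 0.1 added and -1.33 by limma voom, past 2-fold, with a TAI/IVIg mean at 37.5% of the TAI mean.

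In this comparison the intervals of Car2, Car3 and Car8, like that of Car9, were wider than those of Car4, Car12 and Car13. Car2 differed by 0.88 with an interval of -0.08 to 1.84 (limma adjusted p = 0.409), and as single mice were left out it ran from 0.52, without TAI/IVIg mouse 3, to 1.31, without TAI mouse 2. Car3 differed by -1.76 with an interval of -3.74 to 0.21 (limma adjusted p = 0.414), and as single mice were left out it ran from -2.37, without TAI mouse 1, to -0.84, without TAI mouse 3. Car8 differed by -0.46 with an interval of -1.17 to 0.25 (limma adjusted p = 0.519). A 2-fold lower level in TAI/IVIg was therefore within the interval for Car3, Car8 and Car9 (for Car12 it was the value itself with 0.1 added or by voom), and a 2-fold higher level within that for Car2. At an unadjusted p under 0.05 (limma), 12.9% of all genes tested differed between TAI/IVIg and TAI. All 7 Paneth cell, all 7 goblet cell, all 8 smooth muscle and 4 of 8 endothelial markers were lower in TAI/IVIg at this threshold. Of 20 mature enterocyte markers 0 were lower and 1 was higher, and of 9 crypt markers 0 were lower. The Paneth cell marker Habp2, named after its values were seen, passed the filter with no TAI/IVIg mouse at 1 FPKM. After adjustment 0 of these markers were called, and the part of these cells in the values of Car8 and Car2 was not tested.

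**Figure D4:**
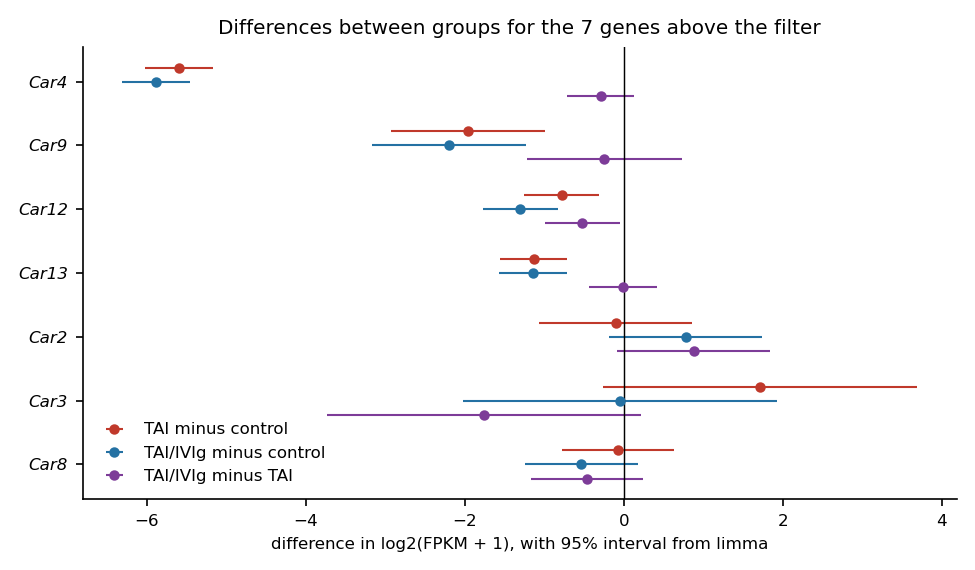
Differences between groups in log2(FPKM + 1) for the 7 genes above the filter (horizontal axis), each with the 95% interval from limma. Against control, Car4 lay at -5.60 in TAI and -5.89 in TAI/IVIg, and the intervals of TAI/IVIg minus TAI took in 0 for all genes except Car12.

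Car13, Car1, Car3 and Car2 are 4 neighbours within 259.0 kb of chromosome 3, and they did not share a pattern. From the start of Car13, Car1 begins at 124.5 kb, Car3 at 221.8 kb and Car2 at 244.5 kb, with Car1 on the minus strand and 13.7 kb between the end of Car3 and the start of Car2. Car13 was lower in all irradiated mice, Car1 was at the floor, Car3 followed Adipoq, and Car2 overlapped between the groups. The pseudogenes Gm5843 and Gm16399 lie within the cluster and Gm38151 before it in the annotation. Upstream of Car13, the gene 1810022K09Rik had a mean of 16.2 FPKM in the control, 8.80 in the TAI and 7.21 in the TAI/IVIg mice (log2 difference in TAI -0.81, SE 0.180, limma adjusted p = 0.00975). Downstream of Car2, the long non-coding RNA A930001A20Rik was at most at 0.0450 FPKM in any mouse.

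**Figure D5:**
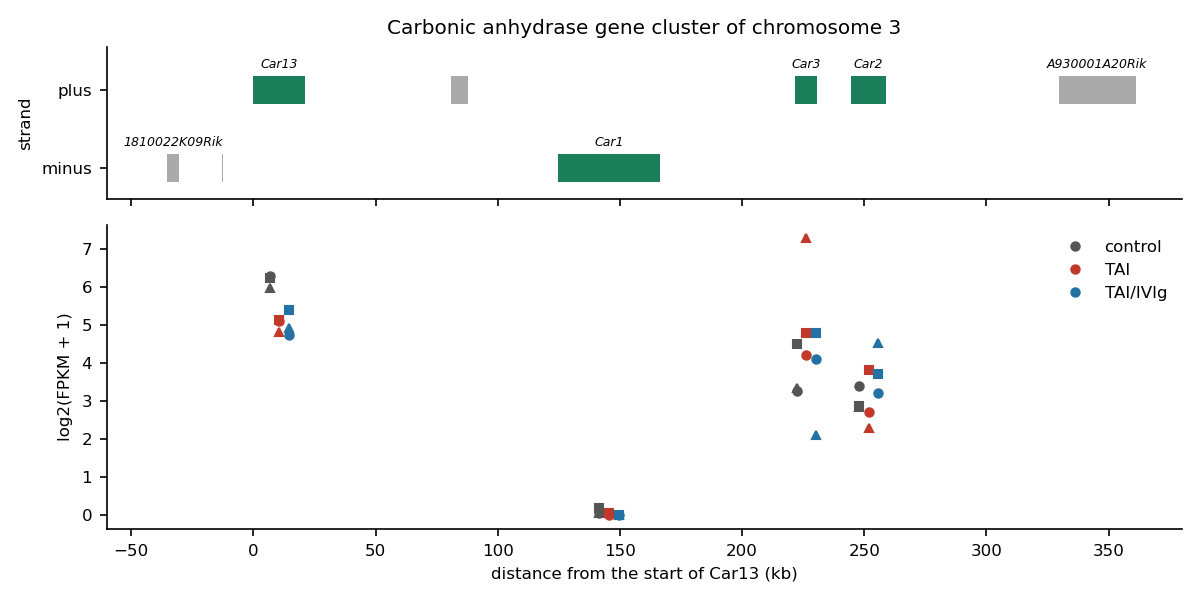
Above, the genes of the chromosome 3 cluster by distance from the start of Car13 in kb and by strand, with carbonic anhydrases in green and other genes in grey. Below, log2(FPKM + 1) of the 4 carbonic anhydrases in each mouse (circle, mouse 1, square, mouse 2, triangle, mouse 3), with Car13 lower in irradiated mice, Car1 near 0, and Car3 and Car2 overlapping between groups.

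The remaining members of the family were near or below the filter. Of 8 other carbonic anhydrases (Car5a, Car5b, Car6, Car7, Car10, Car11, Car14 and Car15), all listed, 1 was tested and 0 were called by limma in TAI against control, with 0 at an unadjusted p under 0.05 and 0 called by limma voom. The tested gene was Car6, a secreted enzyme best known from saliva. It had 2.41, 3.68 and 6.49 FPKM in control, 2.48, 3.15 and 1.96 in TAI and 2.54, 2.46 and 1.90 in TAI/IVIg mice, so the groups overlapped (log2 difference in TAI -0.49, SE 0.270, limma adjusted p = 0.182). Without control mouse 1 it was called lower. The mitochondrial enzyme Car5b, named after its values were seen, reached 2.03 FPKM in TAI mouse 3 and 0.0751 in TAI/IVIg mouse 3, with 0.218 to 0.570 in the other mice.

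Transporters of acid and base are the partners of carbonic anhydrases at the epithelial membrane. Of 22 such genes 15 were tested in TAI against control, and limma called 3 higher and 1 lower, where it called 8.81% and 26.1% of all genes tested, with a median log2 difference of 0.11 beside -0.24 over all genes tested. Higher were Slc26a6, the apical anion exchanger for chloride and bicarbonate, at 30.6 ± 3.78 FPKM in control and 108 ± 4.86 in TAI (log2 difference 1.80, SE 0.146, adjusted p = 0.000258, limma), the scaffold protein Pdzk1 (1.49, SE 0.214, adjusted p = 0.00182, limma) and Slc9a3, the sodium-proton exchanger NHE3 (1.43, SE 0.369, adjusted p = 0.0174, limma). Lower was Slc16a1, the monocarboxylate transporter MCT1, at 29.0 ± 5.07 and 15.5 ± 1.21 FPKM (-0.85, SE 0.230, adjusted p = 0.0211, limma). This count of lower genes was 0 with library medians set equal, and 0 to 3 as single mice were left out, being 0 with control mouse 2, control mouse 3, TAI mouse 1 or TAI mouse 3 left out. It was 2 when TAI/IVIg mouse 1 was left out and 3 when TAI/IVIg mouse 2 was. Slc26a3, the chloride-bicarbonate exchanger DRA, had 43.5, 33.6 and 32.0 FPKM in control and 13.9, 12.4 and 19.7 in TAI mice, which did not overlap, but it missed the threshold (-1.20, SE 0.454, adjusted p = 0.0673, limma). Slc9a8 and Slc4a7, with the next smallest p among those lower, had adjusted p = 0.096 and adjusted p = 0.124 (limma), and Slc4a5 among those higher had adjusted p = 0.133 (limma). Slc4a5 reached 1 FPKM only in TAI mouse 2 and TAI/IVIg mice 2 and 3, so it passed the filter through irradiated mice, where it was high. In TAI/IVIg against TAI, 0 of the 15 were called, and 0 were at an unadjusted p under 0.05 (limma), or called by limma voom.

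Known targets of the hypoxia-inducible factor, the class of genes to which Car9 belongs, held calls in both directions. Of 19 targets 18 were tested in TAI against control, and limma called 5 lower and 4 higher, where it called 26.1% and 8.81% of all genes tested, so the share called lower was near that of all genes. The median log2 difference of the 18 was 0.10. Lower were Aldoa, a glycolytic aldolase (-1.59, SE 0.138, adjusted p = 0.000315, limma), Pdk1, the kinase that restrains pyruvate entry into mitochondria (-1.51, SE 0.207, adjusted p = 0.00156, limma), Egln3, an oxygen-sensing hydroxylase (-0.52, SE 0.111, adjusted p = 0.00894, limma) and Pgk1, a glycolytic kinase (-0.60, SE 0.137, adjusted p = 0.0110, limma). The fifth, named after its value was seen, was Ldha, a subunit of lactate dehydrogenase (-0.69, SE 0.175, adjusted p = 0.0164, limma). Higher were Pfkfb3, a regulator of glycolysis (3.01, SE 0.278, adjusted p = 0.000362, limma), the vascular growth factor Vegfa (1.97, SE 0.217, adjusted p = 0.000729, limma), the transcription factor Bhlhe40 (0.86, SE 0.191, adjusted p = 0.01, limma) and the peptide adrenomedullin, Adm (1.26, SE 0.336, adjusted p = 0.0198, limma). Vegfa stood at 22.4 ± 4.67 FPKM in control and 90.4 ± 15.1 in TAI, while Pdk1 stood at 6.41 ± 1.31 and 1.60 ± 0.444. With library medians set equal the split was 2 lower and 7 higher, and Car9 remained lower by 1.63. In TAI/IVIg against TAI, limma called 0 of 18, and limma voom 0, with 3 lower at an unadjusted p under 0.05.

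For each of the 7 genes the 3 genes most like it were taken by Pearson r of log2(FPKM + 1) over the 9 mice, which share the contrast between control and irradiation, and are given as a description. Car3 was most like Adipoq (r = 0.984), Retn (0.982) and Cfd (0.979), all secreted by adipocytes. Car4 was most like Gm5535 (0.992), Chga (0.992), which encodes a granule protein of enteroendocrine cells, and Mycbp (0.990). Car9 was most like Prdx6 (0.996), Rpe (0.991) and Tug1 (0.988). Car13 was most like Slc25a13 (0.995), Mgam2-ps (0.991) and G6pdx (0.989), and Car12 was most like Kcnk6 (0.983), Hic1 (0.979) and Ift88 (0.978). For Car4, Car9, Car12 and Car13, a pair of levels, high in control and low after irradiation, sets most of the r. Car8 was most like Rap2a (0.964), Csf1r (0.959) and Gm14851 (0.952). Car2 had the least like neighbours in first place, with Cebpg (0.940), Sec22a (0.910) and Cept1 (0.894).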

How the data were processed

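RNA of the jejunum was sequenced in 9 mice, and the labels put 3 of them in each group. The values deposited by the authors are FPKM per gene and mouse, and replicates were not pooled. The submitters' processing notes list FastQC, Trimmomatic, STAR, featureCounts and DESeq2 and the builds mm10 and GRCm38, without versions or settings. The FPKM values of all 31685 genes (100.0%) were whole multiples of a step per library within 0.01 reads, up to a common factor per gene that 294 genes needed, so read numbers were recovered. The floor of 3 reads covers counting error only, while the limma intervals use the spread between mice. On these reads limma voom called 1168 genes higher and 3307 lower in TAI against control, and 0 in TAI/IVIg against TAI. Strand and the treatment of reads shared by related genes are not given in the sources used here, so Gm5843 and other pseudogenes of the family could take reads.

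Log2(FPKM + 1) of the 13056 genes with at least 1 FPKM in at least 3 mice entered a limma model (version 3.58.1, R version 4.3.3) of the 3 groups over all 9 mice, intensity trend and Benjamini-Hochberg adjustment over all genes tested (threshold 0.05). No source says that the mice of a group were separate in housing or handling, so p-values measure the spread between these samples. Deviations from group means correlated at 0.271, 0.241 and 0.308 between same-numbered control and TAI mice, and at -0.336 to 0.146 between differently numbered ones. Same-numbered pairs that include a TAI/IVIg mouse gave -0.296 to 0.201. The highest value of all, 0.408, was between control mouse 3 and TAI/IVIg mouse 2. No source says what a shared number means, so whether control and TAI mice were paired is not known. The fit has no replicate block, so its p-values do not take up such a pairing. Positions are from GENCODE vM21 (GRCm38), in which 31146 identifiers were found. Promoters are from RefSeq on GRCm38.p6, with 3 of 8 genes matched.

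The members and lists were chosen with earlier results of these data known. The rule for named genes took every member, up to 4 tested genes in each direction with the smallest p in TAI against control from the lists of transporters, hypoxia targets and other carbonic anhydrases, summed levels and the first 2 genes of marker lists, the 3 most similar genes and the neighbours on chromosome 3. Car5b, Ldha, Sis, Lipe and the further crypt, adipocyte, skeletal muscle and Paneth cell markers named after their values were seen fall outside it. Alternatives were a pseudocount of 0.1, no filter, equal library medians, quantile normalization, only the 6 mice compared, a replicate block, limma voom and each mouse left out.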

Additional observations from a re-analysis of the deposited data

How the results depend on the processing

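Car4, Car9, Car12 and Car13 stayed lower in both irradiated groups than in control under every alternative run. With library medians set equal, 1 member (Car2) was over 2-fold higher in TAI/IVIg than in control, acid-base transport genes lower in TAI numbered 0, and hypoxia targets numbered 2 lower and 7 higher. Under quantile normalization 2 members in place of 4 were over 2-fold lower in TAI/IVIg, 1 was over 2-fold higher, and 7 hypoxia targets were higher. In TAI/IVIg against TAI the log2 difference of Car13 turned to 0.24 and 0.027 under these scalings. With only the 6 mice compared, 3 acid-base transport genes were lower. The cause was not tested. The largest move of a member's value was that of Car12 in TAI/IVIg against control, from -1.30 to -2.39 with a pseudocount of 0.1 and -2.66 by limma voom.

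Leaving out single mice gave 0 to 1 members over 2-fold higher in TAI (0 without TAI mouse 3) and 0 to 1 in TAI/IVIg (1, Car2, without TAI/IVIg mouse 1), 0 to 3 acid-base transport genes lower, and 0 to 1 other carbonic anhydrases called. The difference between TAI/IVIg and TAI ran from -0.60 to 0.31 for Car9 and from -0.20 to 0.13 for Car13. Over all genes, 3411 lower calls in TAI against control became 1956, 2081 and 1643 without control mouse 2, control mouse 3 and TAI mouse 1, and 1150 higher calls became 707 without the last. An arm with a mouse left out was assumed to vary like the others.

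With the replicate block, 3 members were over 2-fold lower and 1 higher in TAI than in control, 4 lower and 0 higher in TAI/IVIg, and 0 were called in TAI/IVIg against TAI. Hypoxia targets lower in TAI numbered 6 in place of 5, and the counts of hypoxia targets higher, of acid-base transport genes, of other carbonic anhydrases and of members did not change. Over all genes, calls in TAI against control were 3672 lower and 1191 higher in place of 3411 and 1150, and 3 genes in place of 0 were called in TAI/IVIg against TAI. Genes under about 1 FPKM, Car1 above all, are limited by depth, and the value of Car12 depends on the added 1 FPKM.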
